A study of Mus musculus with 12 samples.

Results

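The 37 genes of the mouse mitochondrial genome were examined in injured kidneys of knockout and wild-type mice. The members were all genes that the deposited expression tables place on chromosome MT, which gave 37 of the 54532 genes in each of the tables: 13 protein-coding genes, 2 rRNA genes and 22 tRNA genes. Of these, 9 lie on the minus strand, namely mt-Nd6 and 8 tRNA genes.

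RNA sequencing was performed on whole kidneys of mice labelled C57BL/6, with 3 mice in each of 4 groups. The first table held β-catenin knockout mice after unilateral ureteral obstruction (UUO, ligation of one ureter) and wild-type mice after UUO. The second held mice labelled CD44 knockout after unilateral ischemia-reperfusion injury (UIRI, clipping of one renal pedicle and release of the clip) and wild-type mice after UIRI. All 4 groups were injured, so the libraries hold no uninjured kidney, and the injury and the knockout differ together between the tables and cannot be told apart. The β-catenin deletion was driven by Cre under the Ksp-cadherin promoter in mice with floxed β-catenin. This Cre acts in tubular cells, mostly in distal segments and collecting ducts. The authors also report loss of β-catenin in proximal tubules, in most of them by staining and to some extent in their discussion. Kidney cells outside the tubules are not the target of this design. The 2 sets of wild-type libraries are separate, so each knockout is set only against the wild type sequenced in the same table. The authors bought the β-catenin knockout line from a company and C57BL/6 mice from a university animal centre. They state that Ksp-Cre mice would have been better wild-type controls. Other differences between the mouse lines therefore cannot be told apart from the knockout.

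Mitochondrial DNA is a small circle present in many copies per cell, and its protein genes encode subunits of respiratory complexes I, III and IV and of ATP synthase (complex V), while its rRNAs and tRNAs serve the mitochondrial ribosome. Both strands are transcribed as long precursors that are cut mainly at the tRNAs, and the nucleus supplies the RNA polymerase, the processing factors and the remaining subunits of each complex. Kidney tubules, above all the proximal tubule, are rich in mitochondria, and pieces of mitochondrial DNA have also been inserted into nuclear chromosomes, where they remain as copies.

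One such insertion bears on the values. By a search of the reference transcripts for shared runs of 31 bases, 7 annotated genes on the minus strand of chromosome 1 (24611535 to 24616197, GRCm38) were found to repeat the mitochondrial genome over a stretch taken here as position 6394 to 11042, which leaves out the diverged start of the copy that aligns from position 6381. This definition was chosen after the values had been seen. The copied stretch holds 11 mitochondrial genes whole (mt-Co2, mt-Atp8, mt-Atp6, mt-Co3, mt-Nd3, mt-Nd4l and 5 tRNA genes) and parts of mt-Co1 and mt-Nd4, and the other 24 genes lie outside it. Of the copies, 5 were identical to the mitochondrial reference over their whole length, Gm29216 differed from mt-Co1 at 6 bases between positions 6383 and 6393, just before that stretch, and Gm28438 differed from mt-Nd3 at 1 base, T9461C, with positions counted along the mitochondrial reference and the mitochondrial base first. The first 60 bases of mt-Nd3 and of Gm28438, and the tRNA genes on either side of mt-Nd3, are shown because the largest differences between the groups fell on them; they come from the GENCODE M21 transcripts of GRCm38, and the capital marks the base that differs.
mt-Nd3 (MT:9459-9518, plus strand): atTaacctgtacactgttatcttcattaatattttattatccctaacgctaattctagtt
Gm28438 (chr1:24613060-24613119, minus strand): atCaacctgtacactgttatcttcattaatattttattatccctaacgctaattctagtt
mt-Tg (MT:9391-9458, plus strand): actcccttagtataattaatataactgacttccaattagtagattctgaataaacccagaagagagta
mt-Tr (MT:9808-9875, plus strand): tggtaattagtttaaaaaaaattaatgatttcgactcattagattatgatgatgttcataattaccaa
The differing base is position 3 of mt-Nd3. The gene for the glycine tRNA, mt-Tg, ends 3 bases before it, and the gene for the arginine tRNA, mt-Tr, begins 347 bases after it. How reads that match several places were counted is not given in the sources used here, so the values of the copied genes and of their copies are uncertain.

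The values are FPKM, fragment counts scaled by gene length and library size, so they compare genes per length. Each library held between 15940405 and 20737443 reads assigned to genes, and between 326617 and 766231 of these were on mitochondrial genes. Ctnnb1, which encodes β-catenin, was at 84.7, 71.4 and 71.7 FPKM in the β-catenin knockout kidneys, against 91.2, 86.7 and 98.5 FPKM in wild-type UUO kidneys, a log2 difference of -0.28 that did not pass the test (limma, adjusted p = 0.189). Cd44 was at 19.0, 11.97 and 13.9 FPKM in kidneys labelled CD44 knockout, against 19.9, 16.3 and 17.8 FPKM in wild-type UIRI kidneys (log2 difference -0.27, adjusted p = 0.339), so the gene-level value does not separate these groups and does not check the label. The summed level of 8 proximal tubule markers was 725 to 1177 FPKM in β-catenin knockout kidneys, against 292 to 349 FPKM in wild-type UUO kidneys, and 564 to 1144 FPKM in CD44 knockout kidneys, against 337 to 386 FPKM in wild-type UIRI kidneys. Tubule markers were thus present in every group, as the kidney label implies.

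Reads counted on mitochondrial genes made up a larger share of all reads assigned to genes in the knockout kidneys of both tables. How reads of the copied stretch were counted is not given, so this is a share of counted reads and not of transcripts. The share was 4.05%, 3.97% and 4.34% in the 3 β-catenin knockout kidneys, against 3.17%, 3.33% and 3.36% in the 3 wild-type UUO kidneys. The means were 4.12% ± 0.194 and 3.29% ± 0.0998 (SD, n = 3 each), a ratio of 1.25. All 3 knockout libraries lay above all 3 wild-type libraries, and the exact two-sided permutation test gave p = 0.1, the smallest value that 3 against 3 allows. After UIRI the share was 3.11%, 2.55% and 2.84% in the kidneys labelled CD44 knockout, against 2.05%, 2.36% and 2.48% in wild-type kidneys. The means were 2.83% ± 0.281 and 2.30% ± 0.223 (SD, n = 3 each), a ratio of 1.23, again without overlap (exact permutation p = 0.1). The 95% Wilson interval of a single library was narrow beside these gaps, 4.04% to 4.06% in the first β-catenin knockout library, for example, and it covers counting error only.

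**Figure D1:**
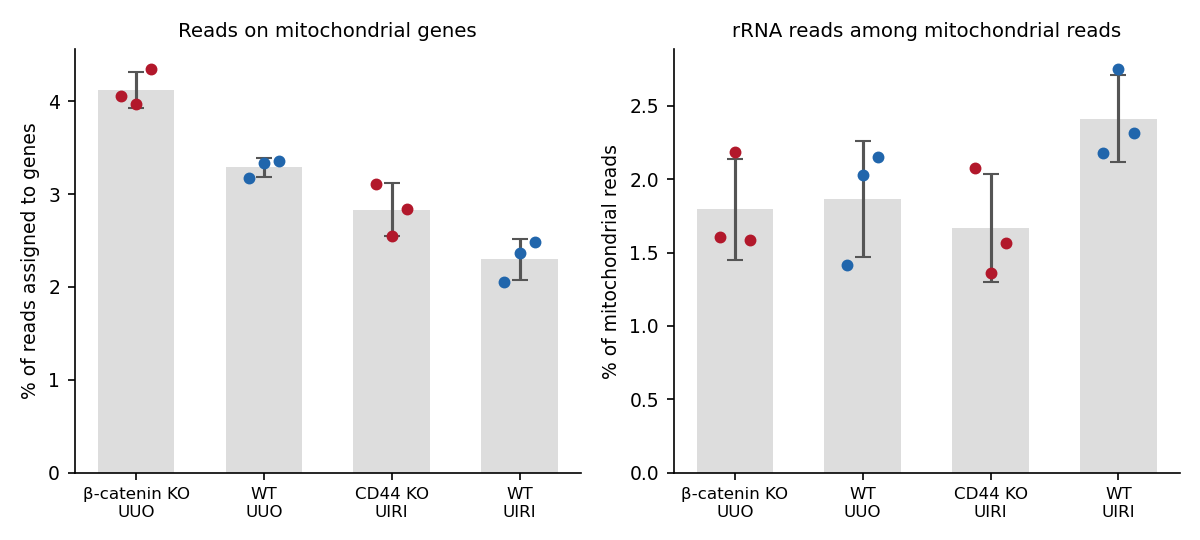
Share of all gene-assigned reads that fell on the 37 mitochondrial genes (left panel), and share of mitochondrial reads that fell on the rRNA genes (right panel), in percent. Each panel holds all 4 groups. Points are single mice and bars are group means with SD (n = 3). In the left panel the knockout points lie between 3.97% and 4.34% (β-catenin) and between 2.55% and 3.11% (CD44), above the wild-type points of the same injury. In the right panel they overlap wild type after UUO and lie below it after UIRI.

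In bulk kidney, more mitochondria-rich cells and more mitochondrial RNA per cell cannot be told apart. Of the 8 proximal tubule markers, 6 were called higher in β-catenin knockout kidneys (median log2 difference 1.31), beside 6.21% of all genes tested, and 4 in CD44 knockout kidneys (median 1.16), beside 4.02%. Of 4 markers of the thick ascending limb, another segment rich in mitochondria, 1 was called higher in β-catenin knockout kidneys (median 0.56) and none was called in CD44 knockout kidneys, where the median was -0.60. The distal convoluted tubule gave no call in either table, with medians of 0.05 over the 1 marker tested after UUO and 0.56 over 2 after UIRI, and of 4 collecting duct markers 1 was called higher after UUO and none after UIRI (medians 0.38 and 0.52). Macrophage markers ran the other way, with 5 of 6 lower in β-catenin knockout kidneys, at a summed 314 to 409 FPKM against 577 to 824 FPKM in wild-type UUO kidneys (4.36% of all genes were called lower), and 4 of 6 lower in CD44 knockout kidneys (2.19% of all genes), at 450 to 662 FPKM against 1059 to 1085 FPKM in wild-type UIRI kidneys. Of 6 fibroblast and myofibroblast markers, 4 were lower in β-catenin knockout kidneys, at 61.8 to 191 FPKM against 192 to 233 FPKM in wild-type UUO kidneys, and 2 were lower in CD44 knockout kidneys, at 111 to 257 FPKM against 209.5 to 360 FPKM in wild-type UIRI kidneys. No marker of these lists was listed at 0. Many of these calls were lost with some libraries left out: without replicate 1 or 2 of wild-type UUO, for example, 2 and 1 proximal tubule markers were called, and without replicate 1 or 3 of CD44 knockout, or any wild-type UIRI replicate, none was. The part of cell composition in the mitochondrial values was not tested.

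The FPKM of a mitochondrial protein gene differed most by its position. Reads of genes inside the copied stretch can also match a copy, and how such reads were counted is not given. Whether the gap below is one of transcript level was therefore not tested. The 7 protein genes outside or partly inside the copied stretch averaged between 1726 FPKM (mt-Nd5) and 10179 FPKM (mt-Co1) in β-catenin knockout kidneys, against 1403 and 7648 FPKM for the same genes in wild-type UUO kidneys. The 6 protein genes inside the stretch averaged between 1.06 FPKM (mt-Atp8) and 128 FPKM (mt-Co2) in β-catenin knockout kidneys, against 0.364 and 80.0 FPKM for the same genes in wild-type UUO kidneys. A gap of this kind was also present after UIRI, with 1038 to 7141 FPKM outside or partly inside and 2.01 to 162 FPKM inside in CD44 knockout kidneys, against 659 to 5240 FPKM and 0.939 to 89.8 FPKM in wild-type kidneys. Of the reads counted on mitochondrial genes, the copied stretch thus held 0.524% in β-catenin knockout kidneys and 0.520% in wild-type UUO kidneys. It held 0.738% in CD44 knockout kidneys and 0.732% in wild-type UIRI kidneys.

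In all 4 groups mt-Co1, the catalytic core subunit of cytochrome c oxidase, stood highest, followed by mt-Cytb, the cytochrome b of complex III, and mt-Nd1, a complex I subunit. The ranges of mt-Cytb and mt-Nd1 overlapped in both knockout groups and in wild-type UIRI kidneys, and did not overlap in wild-type UUO kidneys. Then came mt-Nd2, mt-Nd4 and mt-Nd6, whose order changed between groups, and mt-Nd5, all of complex I. Of the reads counted on mitochondrial genes, mt-Co1 alone held 36.6% in β-catenin knockout kidneys against 37.7% in wild-type UUO kidneys. It held 37.4% in CD44 knockout kidneys against 37.1% in wild-type UIRI kidneys. This order and these shares leave out reads counted on the copies. How reads that match a gene and its copy were counted is not given, so they describe counted reads and not transcript levels.

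**Figure D2:**
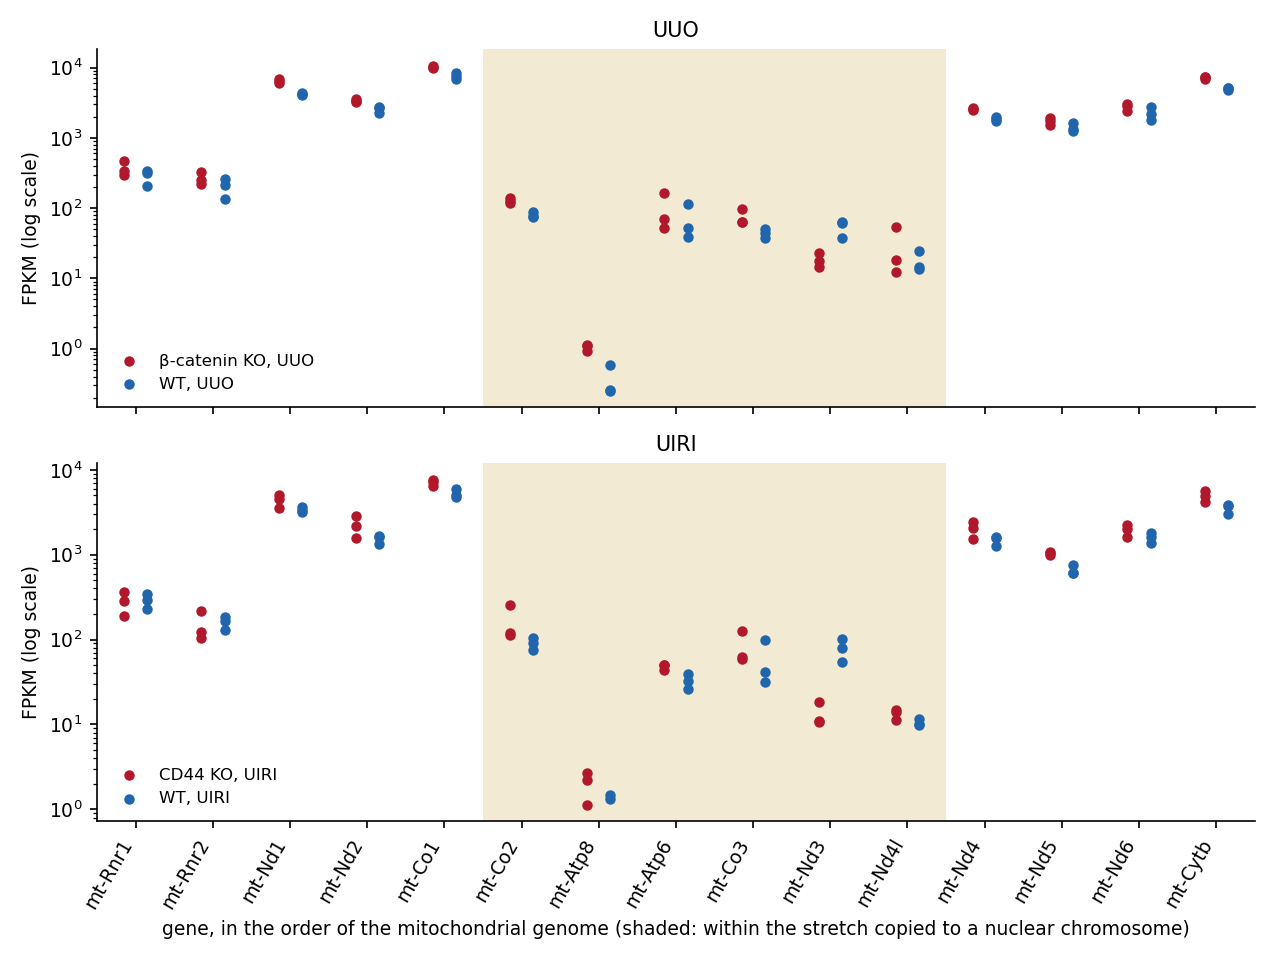
FPKM (log axis) of the 13 protein genes and 2 rRNA genes in their order along the mitochondrial genome, with 1 point per mouse and the copied stretch shaded. Genes outside or only partly inside the shading are at 605 FPKM or more if they code for protein, whereas those wholly inside are at 255 FPKM or less in every library; a value of 0 (mt-Atp8 in wild-type UIRI replicate 1) is not drawn.

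In the first comparison, of β-catenin knockout with wild-type kidneys after UUO, 12 of the 13 mitochondrial protein genes had a positive log2 difference, but single genes seldom passed the test. All differences are of log2(FPKM + 1), fitted with limma over 16166 genes, and a gene is called at a Benjamini-Hochberg adjusted p under 0.05. Of the 37 members, 31 had a mean of at least 0.5 FPKM and were tested. Of these, 2 were called higher and 4 lower, beside 6.21% and 4.36% of all tested genes. The lower calls include mt-Tg, which passed this filter only through its wild-type libraries, so its call could only be a decrease. The median log2 difference of the 31 was 0.43, against 0.01 over all genes tested. With the filter at 1 FPKM, which leaves out mt-Atp8, 11 of 12 protein genes had a positive difference. In 12 of the 31 tested members every knockout library lay above every wild-type library, a pattern seen in 19.6% of all genes. In 4 of the 31 every knockout library lay below, as in 15.9% of all genes. Among the 13 protein genes these numbers were 8 and 1.

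Among the protein genes outside the copied stretch, mt-Cytb was at 6820, 7455 and 7344 FPKM in β-catenin knockout kidneys, against 4778, 5037 and 5033 FPKM in wild-type UUO kidneys. The groups did not overlap, yet the log2 difference of 0.54 had an adjusted p of 0.192 (limma). mt-Nd1 was at 6515, 6852 and 6036 FPKM in β-catenin knockout kidneys, against 4111, 4414 and 4139 FPKM in wild-type UUO kidneys, again without overlap (log2 difference 0.61, adjusted p = 0.141). mt-Nd2 was at 3273 to 3583 FPKM in the knockout, against 2236 to 2788 FPKM in wild type (0.40, adjusted p = 0.264). The other complex I genes overlapped between the groups: mt-Nd5, at 1514 to 1927 FPKM in the knockout and 1247 to 1639 FPKM in wild type, differed by 0.30 (adjusted p = 0.377). mt-Nd6, the single protein gene of the minus strand, was at 2399 to 3046 FPKM in the knockout and 1767 to 2722 FPKM in wild type, a difference of 0.34 (adjusted p = 0.402).

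mt-Co1 and mt-Nd4, which lie partly in the copied stretch, did not overlap between the groups either. mt-Co1 was at 9751, 10094 and 10691 FPKM in β-catenin knockout kidneys, against 6954, 7698 and 8291 FPKM in wild-type UUO kidneys (0.42, adjusted p = 0.353). mt-Nd4 was at 2511 to 2686 FPKM in the knockout, against 1714 to 1970 FPKM in wild type (0.50, adjusted p = 0.144). In every library of the series at least 99.4% of the reads of either pair of gene and copy were on the mitochondrial gene. Adding the copies thus changes these values little. The share does not show how reads that match both places were counted, and Gm28439 repeats 876 of the 1378 bases of mt-Nd4. What this does to the values of mt-Co1 and mt-Nd4 was not tested.

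Inside the copied stretch, the gene called higher was mt-Co2, the subunit that accepts electrons from cytochrome c. It was at 116 to 141 FPKM in β-catenin knockout kidneys, against 74.4 to 89.3 FPKM in wild-type UUO kidneys (log2 difference 0.67 ± 0.14 SE, adjusted p = 0.0268, limma). The call held only with β-catenin knockout replicate 3 left out (adjusted p = 0.0361), and without any other single library the adjusted p was 0.0573 to 0.0877. mt-Co3, a structural subunit of the same enzyme, was at 62.4 to 97.2 FPKM in the knockout, against 37.7 to 50.5 FPKM in wild type (0.72, adjusted p = 0.0642). The ATP synthase genes gave 0.44 for mt-Atp6 (adjusted p = 0.604), with 51.6 to 164 FPKM in the knockout and 39.2 to 115 FPKM in wild type, and 0.60 for mt-Atp8 (adjusted p = 0.0547), which had only 3 to 4 reads per library in the knockout and 1 to 2 in wild type. With a wild-type mean of 0.364 FPKM, mt-Atp8 passed the filter of 0.5 FPKM only through its knockout libraries. Its difference is thus given as a description of the reads. mt-Nd4l, of complex I, was at 12.3 to 54.4 FPKM in the knockout and 13.7 to 24.4 FPKM in wild type (0.43, adjusted p = 0.608).

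mt-Nd3, also a complex I subunit, ran against all the other protein genes. It was at 14.4, 22.6 and 17.8 FPKM in β-catenin knockout kidneys, against 37.9, 62.9 and 60.5 FPKM in wild-type UUO kidneys. The log2 difference was -1.50 ± 0.24 (SE, adjusted p = 0.0153, limma), and every knockout library lay below every wild-type library. Without wild-type UUO replicate 2 the adjusted p was 0.0651.

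The tRNA genes on both sides of mt-Nd3 carried the largest decreases. mt-Tg had 0 reads in all 3 β-catenin knockout libraries, against 12, 28 and 27 reads in wild-type UUO libraries, which is 9.09, 21.99 and 23.4 FPKM. Set against a floor of 3 reads over the group, mt-Tg was at least 20.6-fold lower in the knockout (adjusted p = 0.00426, limma), and it passed the filter on low values only through its wild-type libraries. mt-Tr had 3, 3 and 0 reads in knockout libraries, against 22, 75 and 44 reads in wild-type UUO libraries (log2 difference -3.86 ± 0.61 SE, adjusted p = 0.0154; 0.0627 without wild-type UUO replicate 2). The remaining 3 tRNA genes of the copied stretch, mt-Ts1, mt-Td and mt-Tk, had at most 2 reads in any library of this table and were not tested.

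Outside the copied stretch, 14 tRNA genes were tested and 12 had a positive difference. mt-Tl1, a leucine tRNA that follows the rRNA genes, was called higher, at 51.9, 35.2 and 43.5 FPKM in β-catenin knockout kidneys, against 16.5, 25.6 and 23.5 FPKM in wild-type UUO kidneys (0.97 ± 0.20 SE, adjusted p = 0.0298). mt-Tq, the glutamine tRNA, was called lower from very few reads, 0, 1 and 1 in the knockout against 4, 3 and 7 in wild-type UUO libraries (-1.56 ± 0.34 SE, adjusted p = 0.0326). Both calls were lost with most libraries left out in turn. mt-Tl1 stayed past the threshold only without β-catenin knockout replicate 2 (adjusted p = 0.0478, otherwise 0.0508 to 0.0856), and mt-Tq only without replicate 3 of that group (0.0432, otherwise 0.0619 to 0.0787). The log2 differences were then 0.78 to 1.11 for mt-Tl1 and -1.78 to -1.25 for mt-Tq. The call of mt-Tl1 was also lost with TPM, with equal non-mitochondrial totals, with voom, with a replicate block and without a filter. That of mt-Tq was lost with a pseudocount of 0.1, with voom and without a filter. Over all alternatives the adjusted p reached 0.113 for mt-Tl1 and 0.0971 for mt-Tq. The tRNAs for glutamate (mt-Te, 0.71, adjusted p = 0.0536) and cysteine (mt-Tc, 0.65, adjusted p = 0.0595) were just outside the threshold, and in both all knockout libraries lay above all wild-type libraries. The proline tRNA mt-Tp, by far the most abundant at 1416 ± 158 FPKM in the knockout and 1252 ± 263 FPKM in wild type (SD, n = 3 each), differed by 0.19 (adjusted p = 0.607). The other tested tRNAs, mt-Tn, mt-Tl2, mt-Ts2, mt-Ty, mt-Tw, mt-Th, mt-Tm, mt-Ta and mt-Ti, had differences of -0.13 to 0.97 with adjusted p of 0.227 to 0.847, and mt-Tf, mt-Tv and mt-Tt were at or near 0 and were not tested.

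The 2 rRNA genes, mt-Rnr1 of the small and mt-Rnr2 of the large subunit of the mitochondrial ribosome, overlapped between the groups. mt-Rnr1 was at 342, 470 and 296 FPKM in β-catenin knockout kidneys, against 204, 334 and 312 FPKM in wild-type UUO kidneys (0.39, adjusted p = 0.349). mt-Rnr2 was at 222, 322 and 253 FPKM in the knockout, against 134, 211 and 261 FPKM in wild type (0.43, adjusted p = 0.324). As a share of mitochondrial reads the rRNAs were at 1.61%, 2.19% and 1.58% in the knockout, against 1.41%, 2.03% and 2.15% in wild type, with an exact permutation p of 1.

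**Figure D3:**
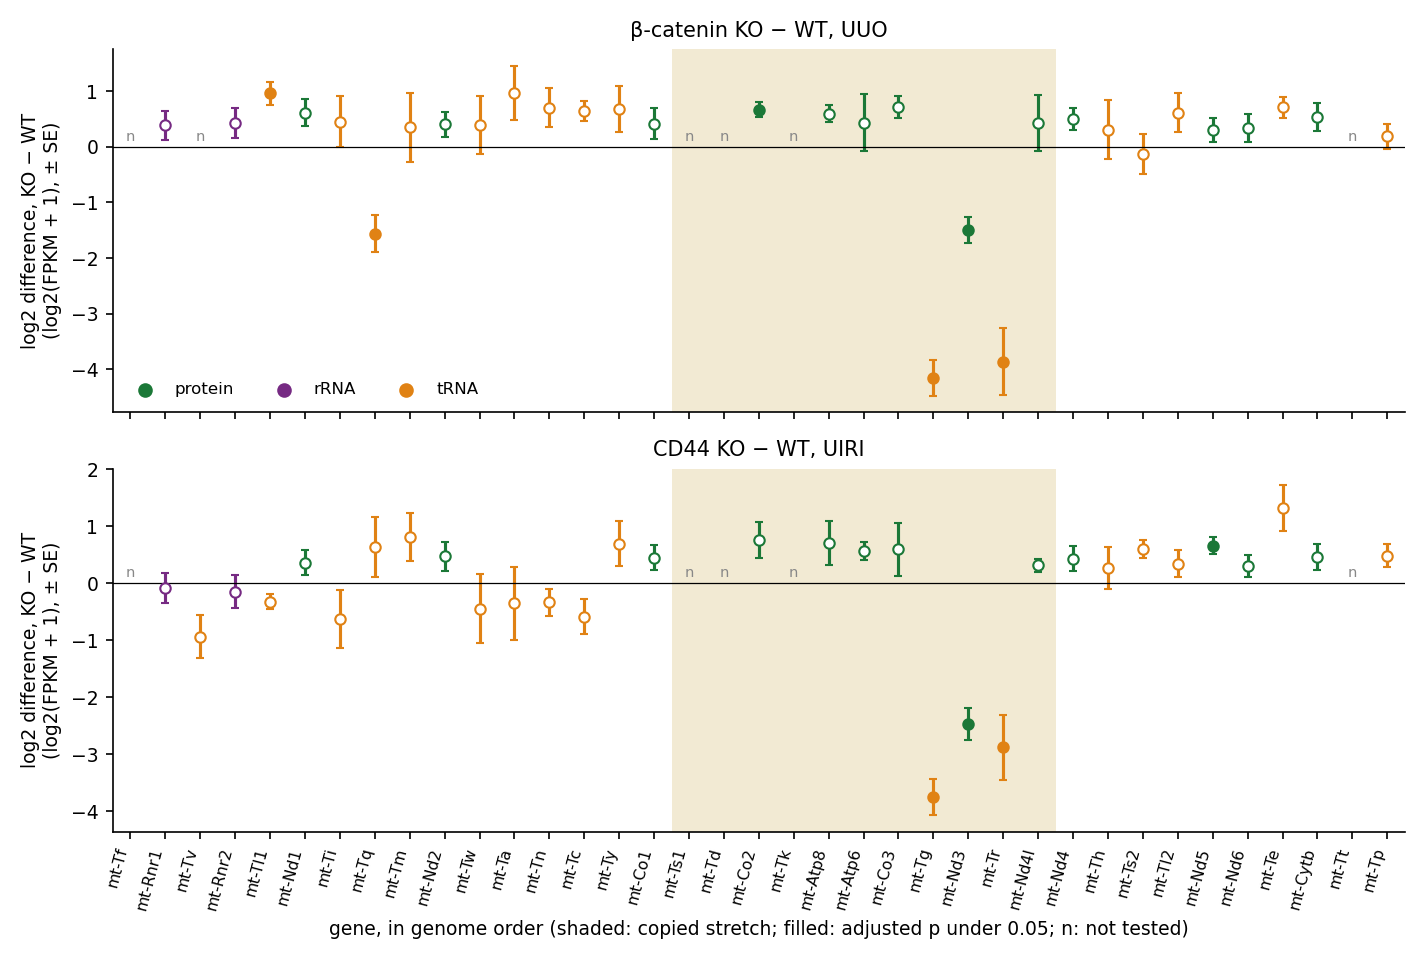
Log2 difference (knockout minus wild type, of FPKM + 1) of every mitochondrial gene in genome order, with its SE, for β-catenin knockout after UUO and CD44 knockout after UIRI. Filled points passed the test and genes marked n were not tested; most protein genes sit between 0.3 and 0.8, and mt-Tg, mt-Nd3 and mt-Tr lie far below 0 in both panels.

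In the second comparison, of CD44 knockout with wild-type kidneys after UIRI, the protein genes again had positive differences in 12 of 13 cases while the rRNAs did not. Of the 37 members 32 were tested among 16113 genes, and 1 was called higher and 3 lower, beside 4.02% and 2.19% of all tested genes. The lower calls again include mt-Tg, whose call could only be a decrease. The median log2 difference of the 32 was 0.35, against 0.00 over all genes, and that of the 13 protein genes was 0.46. In 8 members every knockout library lay above every wild-type library, a pattern seen in 19.1% of all genes, and in 3 every knockout library lay below, as in 14.5% of all genes. Without CD44 knockout replicate 1 or 3, or without wild-type UIRI replicate 1, no mitochondrial gene was called, whereas 5 were called without CD44 knockout replicate 2.

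mt-Nd5, a complex I subunit, was the gene called higher. It was at 1043, 1091 and 980 FPKM in kidneys labelled CD44 knockout, against 616, 605 and 755 FPKM in wild-type UIRI kidneys. The difference was 0.66 ± 0.15 (SE, adjusted p = 0.0491, limma), and with any single library left out the adjusted p was between 0.0512 and 0.153. The call was also lost with TPM, with equal non-mitochondrial totals, with a replicate block and without a filter, with adjusted p of 0.0377 to 0.222 across the alternatives. The more abundant genes did not pass the test. mt-Co1 was at 7664, 6531 and 7227 FPKM in CD44 knockout kidneys, against 4798, 5000 and 5924 FPKM in wild-type UIRI kidneys, without overlap (0.45, adjusted p = 0.242). mt-Cytb was at 5659, 4137 and 4948 FPKM in the knockout, against 3022, 3872 and 3777 FPKM in wild type, also without overlap (0.46, adjusted p = 0.237). mt-Nd1, at 3585 to 5057 FPKM in the knockout and 3157 to 3683 FPKM in wild type, overlapped (0.36, adjusted p = 0.323). CD44 knockout replicate 2 was the lowest knockout library for mt-Co1, mt-Cytb and mt-Nd1, as it was for mt-Nd2, mt-Nd4 and mt-Nd6, whose differences were 0.47 (adjusted p = 0.280), 0.43 (0.262) and 0.30 (0.371).

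Inside the copied stretch, mt-Atp6 was at 44.2 to 50.8 FPKM in CD44 knockout kidneys, against 25.9 to 38.9 FPKM in wild-type UIRI kidneys (0.57, adjusted p = 0.0711). mt-Co2 was at 255, 121 and 112 FPKM in the knockout, against 76.1, 103 and 90.1 FPKM in wild type, so that 1 knockout library stood far above the other two (0.75, adjusted p = 0.182). mt-Co3 (0.60, adjusted p = 0.448), mt-Atp8 (0.71, adjusted p = 0.285) and mt-Nd4l (0.31, adjusted p = 0.151) did not pass the test. mt-Nd3 stood apart here too, at 18.4, 11.0 and 10.8 FPKM in CD44 knockout kidneys, against 54.9, 103 and 79.3 FPKM in wild-type UIRI kidneys. Its difference was -2.47 ± 0.28 (SE, adjusted p = 0.0265), and of single libraries only the omission of CD44 knockout replicate 2 left it past the threshold (0.00896, otherwise 0.0557 to 0.1001).

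mt-Tg had 0 reads in all 3 CD44 knockout libraries, against 14, 26 and 10 reads in wild-type UIRI libraries. It was at least 16.2-fold lower in the knockout by the same floor (adjusted p = 0.0167, limma), and the adjusted p was 0.0557, 0.0804 and 0.0652 without CD44 knockout replicate 1, CD44 knockout replicate 3 and wild-type UIRI replicate 1. mt-Tr had 4, 0 and 1 reads in the knockout, against 9, 27 and 19 reads in wild type (-2.88 ± 0.57 SE, adjusted p = 0.0394), a call that among single libraries held only without CD44 knockout replicate 2 (0.0314, otherwise 0.0557 to 0.141). As after UUO, mt-Tg passed the filter on low values only through its wild-type libraries, so its call could only be a decrease and is given as a description of the reads. These genes and mt-Nd3 are the 3 members called lower in both tables, and they lie next to each other in the genome.

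No other tRNA gene was called after UIRI. Of the 15 tested outside the copied stretch, 8 had a positive and 7 a negative difference, from -0.94 (mt-Tv, adjusted p = 0.172) to 1.32 (mt-Te, adjusted p = 0.0965). mt-Tv had 0 reads in the CD44 knockout libraries and 4 in the wild-type UIRI libraries together. It passed the filter only through wild type, so its difference could only be a decrease. mt-Te was at 134, 50.9 and 125 FPKM in CD44 knockout kidneys, against 25.9, 41.0 and 49.8 FPKM in wild-type UIRI kidneys, without overlap. mt-Tp was again the most abundant tRNA, at 1228 ± 286 FPKM in the knockout and 863 ± 68.9 FPKM in wild type (SD, n = 3 each, 0.48, adjusted p = 0.174), and mt-Ts2, a serine tRNA, gave 0.61 (adjusted p = 0.0680). mt-Tl1, called higher after UUO, was at 10.01, 8.08 and 7.44 FPKM in CD44 knockout kidneys, against 9.53, 10.9 and 12.1 FPKM in wild-type UIRI kidneys (-0.32, adjusted p = 0.177), and mt-Tq had 4, 2 and 0 reads in the knockout against 0, 1 and 1 in wild type (0.64, adjusted p = 0.472). In this table mt-Tq passed the filter only through its knockout libraries, so its difference is given as a description of the reads.

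The rRNA genes did not follow the protein genes in this table. mt-Rnr1 was at 367, 190 and 284 FPKM in CD44 knockout kidneys, against 231, 347 and 294 FPKM in wild-type UIRI kidneys (-0.08, adjusted p = 0.869), and mt-Rnr2 at 220, 105 and 124 FPKM, against 128, 183 and 167 FPKM in wild type (-0.15, adjusted p = 0.780). Without CD44 knockout replicate 2 both differences were positive, with a median of 0.12, and without wild-type UIRI replicate 2 the median was 0.01. As a share of mitochondrial reads, which no scaling of the libraries can move, the rRNAs were at 2.08%, 1.36% and 1.56% in the knockout, against 2.18%, 2.75% and 2.31% in wild type. The means were 1.67% ± 0.367 and 2.41% ± 0.298 (SD, n = 3 each), without overlap, and the exact permutation p was 0.1, the smallest possible. The share of mt-Nd6 among the protein reads did not overlap either, at 3.502% ± 0.105 in the knockout and 3.89% ± 0.298 in wild type (exact permutation p = 0.1), whereas after UUO it was 3.43% in the knockout and 3.75% in wild type with overlap (p = 0.7, exact). The tRNAs held 0.408% of mitochondrial reads in β-catenin knockout kidneys and 0.444% in wild-type UUO kidneys (exact p = 0.4), and 0.396% in CD44 knockout kidneys and 0.425% in wild-type UIRI kidneys (exact p = 0.3). Reads of the 2 strands may not have been separated, as a strand setting is not given in the sources used here, so the minus-strand genes may include reads of the opposite strand.

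Set side by side, the protein genes other than mt-Nd3 had log2 differences of like size in the tables, with medians over all 13 of 0.44 after UUO and 0.46 after UIRI. The difference between the knockout effects was fitted over 16193 genes in all 12 libraries, and no mitochondrial gene was called by limma, beside 0.00618% of all genes tested. Without adjustment, 5 of 31 members were below 0.05, against 13.6% of all genes tested, and voom on the recovered reads likewise called none. The smallest p was that of mt-Tl1, with a difference of 1.29 between the effects (adjusted p = 0.133), followed by mt-Tc (1.23, adjusted p = 0.229) and mt-Tq (-2.20, adjusted p = 0.231). mt-Nd3 differed by 0.97 (adjusted p = 0.327).

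The reads of mt-Nd3 and of its chromosome 1 copy moved in opposite directions. Gm28438 was at 85.1, 134 and 94.9 FPKM in β-catenin knockout kidneys, against 9.71, 12.4 and 11.4 FPKM in wild-type UUO kidneys, and it rose by 3.10 ± 0.19 on the log2 scale (SE, adjusted p = 0.00285, limma). In kidneys labelled CD44 knockout it was at 136, 85.7 and 113 FPKM, against 7.77, 15.3 and 12.01 FPKM in wild-type UIRI kidneys, a difference of 3.17 ± 0.26 (SE, adjusted p = 0.0167). The call after UUO held without any single library (adjusted p up to 0.0247), and the call after UIRI was lost without CD44 knockout replicate 1 or 3 or wild-type UIRI replicate 2 or 3 (adjusted p = 0.0538 to 0.0804). Of the reads on this pair, mt-Nd3 took 14.6%, 14.5% and 15.9% in β-catenin knockout kidneys, against 79.8%, 83.7% and 84.2% in wild-type UUO kidneys. It took 12.04%, 11.4% and 8.81% in CD44 knockout kidneys, against 87.7%, 87.2% and 86.9% in wild-type UIRI kidneys. The differences were -67.6 and -76.5 percentage points, each with an exact permutation p of 0.1, and the 95% Wilson intervals of the single libraries reached at most 18.8% in a knockout library and at least 75.01% in a wild-type library. Both knockouts thus differed from their wild-type mice in the same direction at this pair. Whether the difference goes with the knockout or with the mouse line was not tested. Which base the mice of each group carry at position 9461 was not analysed here, since the tables hold values per gene.

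Adding the FPKM of each copy to that of its mitochondrial gene, an alternative chosen after the values had been seen, removed the decrease of mt-Nd3. The sum of mt-Nd3 and Gm28438 was 99.4, 156 and 113 FPKM in β-catenin knockout kidneys, against 47.6, 75.3 and 72.0 FPKM in wild-type UUO kidneys (log2 difference 0.91, adjusted p = 0.0520). It was 154, 96.7 and 123 FPKM in CD44 knockout kidneys, against 62.7, 118 and 91.3 FPKM in wild-type UIRI kidneys (0.48, adjusted p = 0.291). With the sums, all 13 protein genes had a positive difference in both tables, with medians of 0.54 after UUO and 0.48 after UIRI. After UUO 2 of them were called higher, mt-Co2 (0.68, adjusted p = 0.0423) and mt-Co3 (0.76, adjusted p = 0.0261), beside 6.19% of all genes, and after UIRI 2 were called higher, mt-Nd5 and mt-Nd4l (0.95, adjusted p = 0.0269), beside 3.97%. No protein gene was then called lower, beside 4.36% of all genes after UUO and 2.18% after UIRI. mt-Tg and mt-Tr stayed lower in both tables, since no annotated gene covers their copies and so no value could be added to theirs.

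The other pairs did not divide the groups in this way in both tables. The nearest was mt-Nd4l with Gm10222, where mt-Nd4l took 38.7%, 45.6% and 43.9% of the reads in CD44 knockout kidneys, against 68.5%, 67.5% and 64.2% in wild-type UIRI kidneys (exact permutation p = 0.1). After UUO it took 36.8%, 37.9% and 67.1% in the knockout, against 59.8%, 64.5% and 61.2% in wild type, with overlap (exact p = 0.4). For mt-Co2 with Gm28661 the share was 44.5% to 47.0% in β-catenin knockout kidneys, against 44.4% to 47.1% in wild-type UUO kidneys, and 56.6% to 72.0% in CD44 knockout kidneys, against 50.9% to 55.1% in wild-type UIRI kidneys. For mt-Atp6 with Gm10925 and mt-Co3 with Gm28437 the groups overlapped in both tables. As genes, the copies Gm28661 (0.69, adjusted p = 0.0480), Gm28437 (0.79, adjusted p = 0.0137) and Gm10222 (1.21, adjusted p = 0.0293) were also called higher after UUO, and Gm10925 (0.45, adjusted p = 0.0486), Gm28437 (0.90, adjusted p = 0.0376), Gm10222 (1.60, adjusted p = 0.0167) and Gm28439 (0.76, adjusted p = 0.0348) after UIRI; Gm29216 was not called in either. Of these calls, that of Gm28437 after UUO held without any single library (adjusted p up to 0.0455), and the others were lost without one library or more. All 7 copies together took 0.0270% of all reads in β-catenin knockout kidneys, against 0.0171% in wild-type UUO kidneys, and 0.0219% in CD44 knockout kidneys, against 0.0144% in wild-type UIRI kidneys, without overlap.

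**Figure D4:**
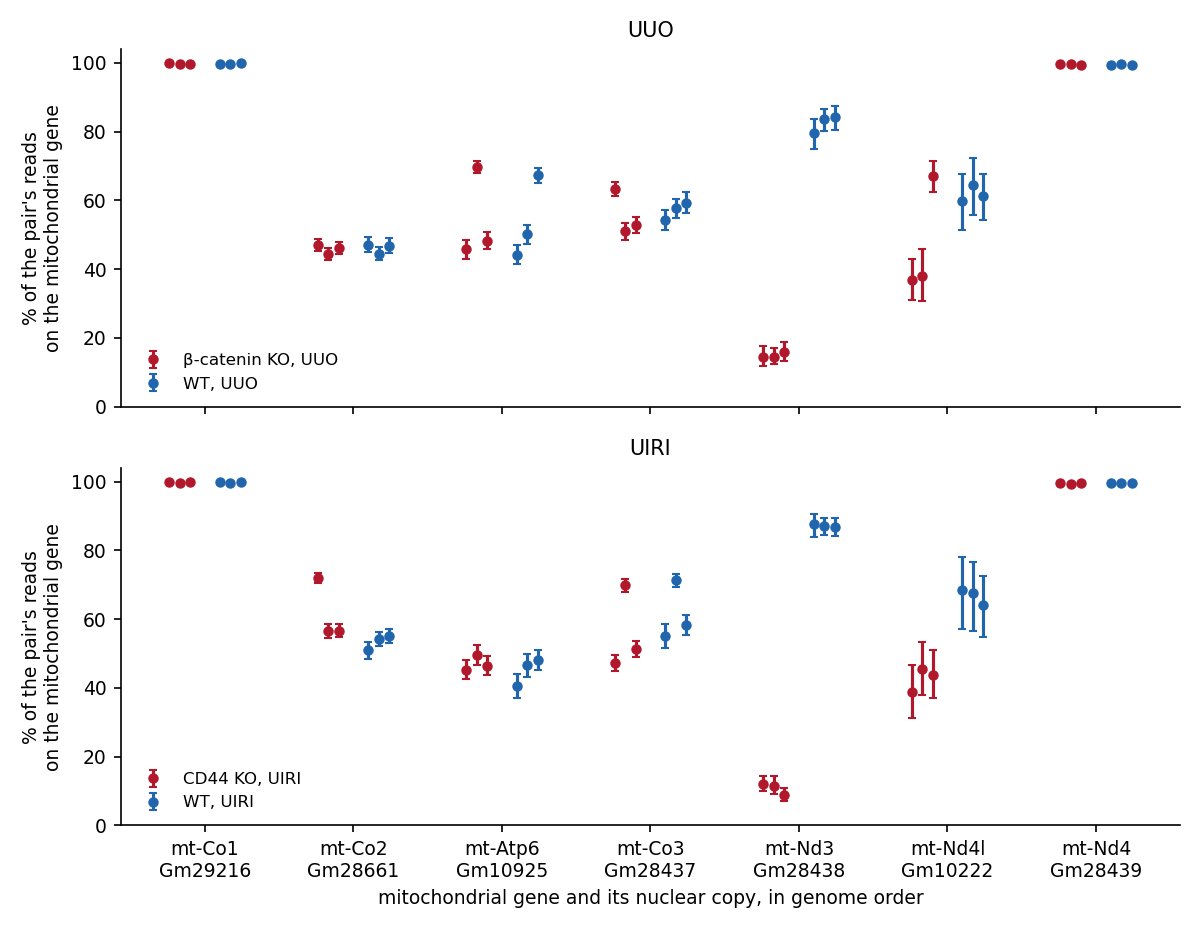
Percent of the reads on a mitochondrial gene and its chromosome 1 copy that were counted on the mitochondrial gene, for each pair and library, with 95% Wilson intervals. For mt-Nd3 the knockout libraries lie between 8.81% and 15.9% and the wild-type libraries between 79.8% and 87.7%; for mt-Co1 and mt-Nd4 all libraries lie at 99.4% or more.

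Nuclear genes of mitochondrial gene expression were called in small numbers, in shares to be read against 6.21% higher and 4.36% lower over all genes after UUO, and 4.02% and 2.19% after UIRI. Each list held 1 to 3 calls, some at about that background, and the called genes are named as single genes only. Of 11 genes of mitochondrial DNA transcription, 2 were called higher in β-catenin knockout kidneys after UUO and none lower: Mrpl12, a ribosomal protein that also binds the polymerase (1.04, adjusted p = 0.0266), and Polrmt, the mitochondrial RNA polymerase (0.41, adjusted p = 0.0445). Polrmt was the one called higher in CD44 knockout kidneys after UIRI (0.42, adjusted p = 0.0490), while Tfam, which packages the genome and starts its transcription, gave 0.19 (adjusted p = 0.320) after UUO and 0.31 (adjusted p = 0.192) after UIRI. Of 16 genes of replication and the nucleoid, Slc25a4, the ADP/ATP carrier, was higher after UUO (0.61, adjusted p = 0.0481), and the protease Lonp1 (0.50, adjusted p = 0.0348) and the nucleoid-associated Atad3a (0.52, adjusted p = 0.0392) were higher after UIRI. Of the 30 genes of RNA processing and stability, 29 were tested after UUO. Fastk (0.48, adjusted p = 0.0315) and Grsf1 (0.45, adjusted p = 0.0498), a protein of the RNA granules, were higher there and Pnpt1, a subunit of the RNA-degrading complex, was lower (-0.52, adjusted p = 0.0406). After UIRI all 30 were tested and 1 was called, Lrpprc, which stabilises mitochondrial mRNAs (0.58, adjusted p = 0.0305; 0.03 with adjusted p = 0.869 after UUO). Among 8 regulators, Esrra, a nuclear receptor of mitochondrial genes, was higher in both (0.91, adjusted p = 0.0255 after UUO; 0.60, adjusted p = 0.0354 after UIRI), Ppargc1b, a coactivator, was higher after UIRI (0.65, adjusted p = 0.0427), and the related Ppargc1a gave 0.22 (adjusted p = 0.451) after UUO and 0.01 (adjusted p = 0.958) after UIRI. The medians of these 4 lists lay between 0.04 and 0.15. With any one of 5 of the 6 UUO libraries left out, none of the 4 lists held a call, the exception being β-catenin knockout replicate 3, without which 2, 4, 4 and 1 genes were higher; after UIRI the lists held calls only without CD44 knockout replicate 2.

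The nuclear subunits of the complexes to which the mitochondrial genes contribute were called in the UUO table and not in the UIRI table, a difference between the tables that itself did not pass the test. After UUO, 8 of 36 complex I subunits were called higher (median 0.65), where 6.21% of all genes were, among them Ndufa6 (0.85, adjusted p = 0.0154), Ndufv3 (1.21, adjusted p = 0.0154) and Ndufb10 (1.06, adjusted p = 0.0210), beside a median of 0.40 for the 7 mitochondrial ones. For complex III 6 of 9 were higher (median 0.71), with Uqcr10 (0.95, adjusted p = 0.0326), Cyc1 (0.74, adjusted p = 0.0327) and Uqcr11 (1.45, adjusted p = 0.0338), beside 0.54 for mt-Cytb. For complex IV 4 of 10 were higher (median 0.72), with Cox4i1 (0.88, adjusted p = 0.0277), Cox5b (1.04, adjusted p = 0.0389) and Cox7b (0.69, adjusted p = 0.0399), beside 0.67 for the 3 mitochondrial subunits. For ATP synthase 4 of 15 were higher (median 0.58), with Atp5g3 (0.93, adjusted p = 0.0246), Atp5e (0.97, adjusted p = 0.0266) and Atp5d (0.96, adjusted p = 0.0351), beside 0.52 for the 2 mitochondrial ones. Of the latter, mt-Atp8 had very few reads. None was called lower. After UIRI no nuclear subunit was called in any of the 4 complexes, and the medians were 0.08, 0.12, 0.01 and 0.11, beside 0.36, 0.46, 0.60 and 0.64 for the mitochondrial subunits of complexes I, III, IV and V.

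In the fit of the difference between the knockout effects, the nuclear subunits had median differences of 0.50, 0.73, 0.67 and 0.43 for complexes I, III, IV and V, and no subunit was called. The counts after UUO changed with the library left out and with the filter: when all genes were kept, 2, 0, 0 and 0 subunits were called. Without β-catenin knockout replicate 3, 27, 7, 8 and 11 subunits of the 4 complexes were higher, and without any other single library 0 to 3 of complex I and none of the others were. After UIRI the counts were 2, 3, 0 and 2 without CD44 knockout replicate 2 and 0 without any other library.

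**Figure D5:**
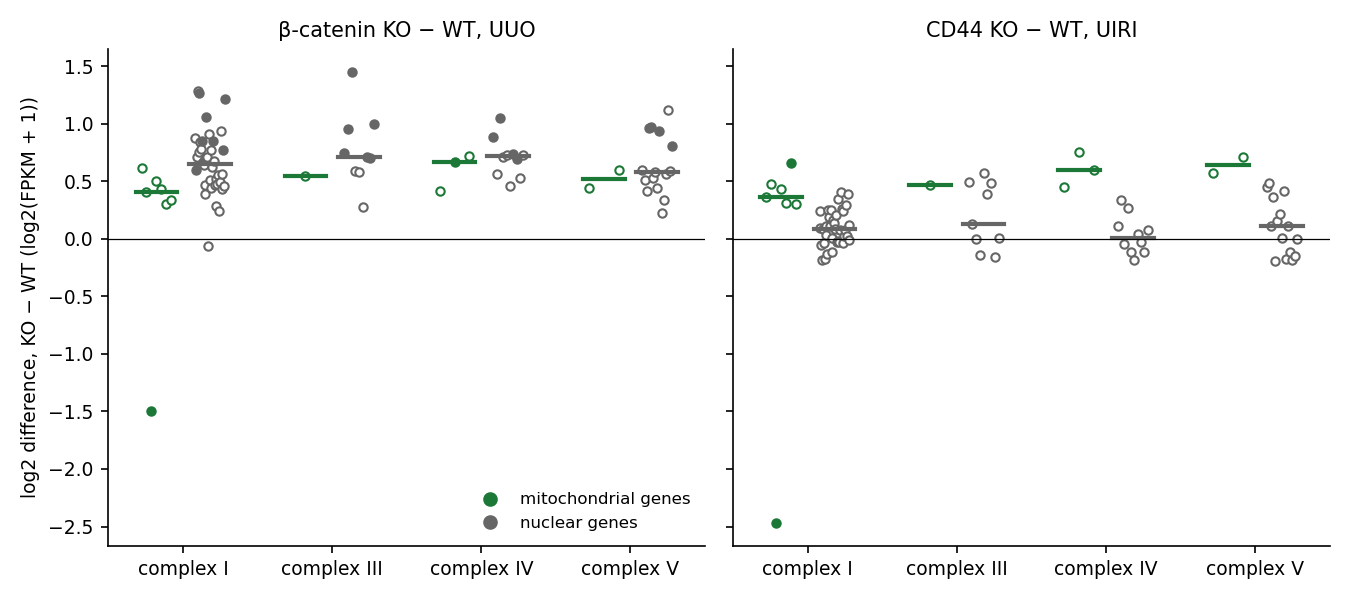
Log2 difference (knockout minus wild type, of FPKM + 1) of mitochondrial and nuclear subunits of complexes I, III, IV and V in each table; points are genes, filled where called, and bars are medians. Nuclear medians are 0.58 to 0.72 after UUO and 0.01 to 0.12 after UIRI, whereas mitochondrial medians are 0.40 to 0.67 and 0.36 to 0.64.

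The direction of the protein genes did not depend on how the libraries were scaled. Rescaling to TPM moved the median of all genes to -0.16 after UUO and -0.10 after UIRI, and the median of the protein genes was then 0.22 and 0.33, with 12 of 13 still positive in each table. The 7 protein genes not wholly inside the copied stretch were positive under every scaling tried and with each library left out in turn. Among all 13, 11 were positive after UUO without β-catenin knockout replicate 2 or 3.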

How the data were processed

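RNA-seq values were deposited by the authors as FPKM per gene in 2 tables (3 knockout and 3 wild-type columns each), beside gene coordinates and gene length. The submitters' processing notes name HISAT2 2.0.5, featureCounts 1.5.0-p3, DESeq2 1.20.0 and GRCm38; settings for multi-mapping and strand are not given in the sources used here. FPKM × gene length fell in whole steps, and reads were recovered with 100% of values whole within 0.01 read; the steps times median-of-ratios size factors were constant in a table, so FPKM follow those factors and library totals differ.

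Wild-type columns carry like names in both tables and were assigned by the knockout beside them. Differences of log2(FPKM + 1) were fitted with limma 3.58.1 (R 4.3.3; trend) over genes averaging 0.5 FPKM or more in the table, Benjamini-Hochberg adjusted over all tested, threshold 0.05, within each table; shares of reads were compared with exact permutation tests, and intervals are 95% Wilson. Figures and shares used Python 3.11.15. The mice are separate animals per the labels. Copies were transcripts (GENCODE M21) sharing at least 90% of 31-mers with the mitochondrial genome. Members and lists were chosen with earlier results of these data known. All protein and rRNA genes, the tested tRNA genes and up to 3 called genes per list were named. Alternatives were a pseudocount of 0.1, no filter or 1 FPKM, TPM, equal non-mitochondrial totals, voom, a replicate block and each library left out. Authors' comparison columns were not used. The scripts were tested on simulated data.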

Additional observations from a re-analysis of the deposited data

How the results depend on the processing

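After UUO the number of mitochondrial genes called, 6 in all, was 5 to 7 under most settings and 2 without a filter; of the 6 genes themselves, 6 stayed called at 1 FPKM, 4 with voom, 5 under the other scalings, the pseudocount, the block and summing, and 2 without a filter. With a library left out 1 to 5 were called, all among the 6. The calls of both tables include mt-Tg, which passed the main filter only through wild type. After UIRI, with 4 called, the number was 3 or 4 under most settings, 1 without a filter, 0 with the replicate block, and 0 to 5 with a library left out; the 5 without CD44 knockout replicate 2 held 3 of the 4 and 2 other genes. Replicate numbers are shared by the groups. After UIRI the deviations of same-numbered libraries had correlations of -0.14, -0.03 and -0.03, so they did not deviate together. After UUO the correlations were 0.08, 0.20 and 0.04, against -0.16 to 0.08 for libraries of unlike number. These small values do not settle whether the UUO libraries were paired. With the block 5 mitochondrial genes were called after UUO, and 19 in place of 8 nuclear complex I subunits. Summing copies (added after the values were seen) reversed mt-Nd3 to 0.91 after UUO and 0.48 after UIRI. No mitochondrial gene was called for the difference between the knockout effects in any setting. The difference in mitochondrial share was 0.726 to 0.910 points after UUO and 0.398 to 0.679 after UIRI with a library left out. The rRNA share differed by -0.0714 points after UUO, -0.297 to 0.0725 with a library left out, and by -0.745 after UIRI, -0.949 to -0.577. Over all genes, calls after UIRI numbered 1 to 10 without any single library other than CD44 knockout replicate 2, and 2180 without that one. After UUO they numbered 1709 with all libraries, 228 to 1050 without any single library other than β-catenin knockout replicate 3, and 2449 without that one. The values of tRNA genes with a few reads per library rest on those few reads, and what limits their number was not tested.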

Other observations

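Nnt, the nuclear gene of the inner-membrane transhydrogenase that makes mitochondrial NADPH, was below the filter in all 12 libraries at 0.0431 to 0.179 FPKM. The proline tRNA mt-Tp exceeded both rRNA genes per length in all 4 groups, and mt-Tf, the first tRNA of the genome, was listed at 0 in all 12 libraries.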
